A study of Saccharomyces cerevisiae with 15 samples.

Results

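The genes described here encode the enzymes of the tricarboxylic acid (TCA) cycle, the glyoxylate cycle and the pyruvate dehydrogenase complex of Saccharomyces cerevisiae, together with the cytosolic and peroxisomal versions of these enzymes, the pyruvate carboxylases, the malic enzyme and the fumarate reductases. They were chosen by name, as a list of 34 symbols matched to the systematic names on the array, and all 34 were found among the 6224 genes measured. RNA came from the commercial wine strain QA23, grown in rich glucose medium with or without melatonin, an indolamine that yeast can take up and make. Cells in early exponential growth were then exposed to hydrogen peroxide or left unexposed, and were harvested after 1 h. The 5 conditions, with 3 arrays each, were H (2 mM H2O2 without melatonin), MelH (5 μM melatonin and 2 mM H2O2), 25MelH (25 μM melatonin and 2 mM H2O2), Mel (5 μM melatonin without H2O2) and Control (neither). All cells were of 1 strain in glucose medium, and no arm had 25 μM melatonin without stress, so that in 25MelH vs. Control the dose and the stress cannot be told apart.

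The TCA cycle oxidizes acetyl-CoA in the mitochondrion. Pyruvate dehydrogenase makes that acetyl-CoA from pyruvate, citrate synthase joins it to oxaloacetate, and a chain of dehydrogenases returns oxaloacetate while passing electrons to NAD and, at succinate dehydrogenase, to the respiratory chain. The glyoxylate cycle uses isocitrate lyase and malate synthase to skip the steps that release carbon dioxide, so that yeast can build sugars from acetate or ethanol. In glucose medium many of these genes are held low by glucose repression, and several are under the Hap2/3/4/5 complex or under the retrograde pathway, in which Rtg1 and Rtg3 answer to the state of the mitochondrion. Aconitase and succinate dehydrogenase carry iron-sulfur clusters, which peroxide can damage.

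Each level is given as a log2 level, the log2 of the background-subtracted signal of a gene's probe over the 75th percentile of its array, so a value of 0 lies at that percentile. Levels were compared between arrays and never between genes. The array's 75th percentile was between 2265 and 3578 signal units on the 9 stressed arrays and between 4195 and 5938 on the 6 unstressed arrays. On the stressed arrays 31 to 34 of the 34 genes were well above background, and on the unstressed arrays all 34 were. The genes below background were CIT3, SHH3 and MLS1. CIT3 was above background on 2, 1 and 2 of 3 arrays of H, MelH and 25MelH, and SHH3 and MLS1 on 1 of 3 arrays in each of these conditions. As a check of the labels, SRX1, TRX2, GPX2, CCP1 and TRR1, genes of peroxide defence, were higher on every stressed array than on every unstressed array. Scaled on spike-in controls, SRX1 was still called higher in H vs. Control and MelH vs. Mel and GPX2 in the second (0.27 in the first, adjusted p = 0.113), while TRX2 was below 0 in the first and CCP1 and TRR1 in both. Several of the genes have close paralogs (SDH3 and SHH3, SDH4 and SHH4, PYC1 and PYC2, OSM1 and FRD1, the CIT, MDH and IDP genes), and how far their probes also bind the paralog's RNA was not tested. Arrays lay on 2 slides, and each condition had arrays on both.

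Under peroxide stress without melatonin (H vs. Control) more of the genes fell than rose. Of the 34 genes, 28 passed the threshold, an adjusted p under 0.05 in limma over all genes measured, 9 higher and 19 lower. Over all genes measured, 27.3% were called higher and 41.1% lower in the same fit. The median log2 change was −0.29 over the 34 genes and −0.089 over all genes. The cytosolic malate dehydrogenase MDH2 and the peroxisomal citrate synthase CIT2 had the largest decreases, and the pyruvate carboxylase PYC1 the largest increase. In RNA from a whole culture, fewer cells expressing a gene and less of its RNA per cell cannot be told apart. The split between higher and lower calls moved with how the arrays were scaled. Median centring made it 13 higher and 12 lower, 6 and 17 with quantile normalization, 13 and 16 with normexp background correction, and 0 and 33 when the arrays were scaled on their spike-in controls, which set the median of all genes at −1.51. A fit with the slide as a block called 28 (8 higher, 20 lower), within slide 1 19 passed (5 higher, 14 lower) and within slide 2 10 passed (1 higher, 9 lower), where each slide held a single array of H or of Control. CIT2, MDH2, SDH2, SHH4, ICL1, LSC2 and SDH4 fell and passed under all 18 alternative settings tried for this comparison, among them every scaling, each slide alone and each array left out.

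**Figure D1:**
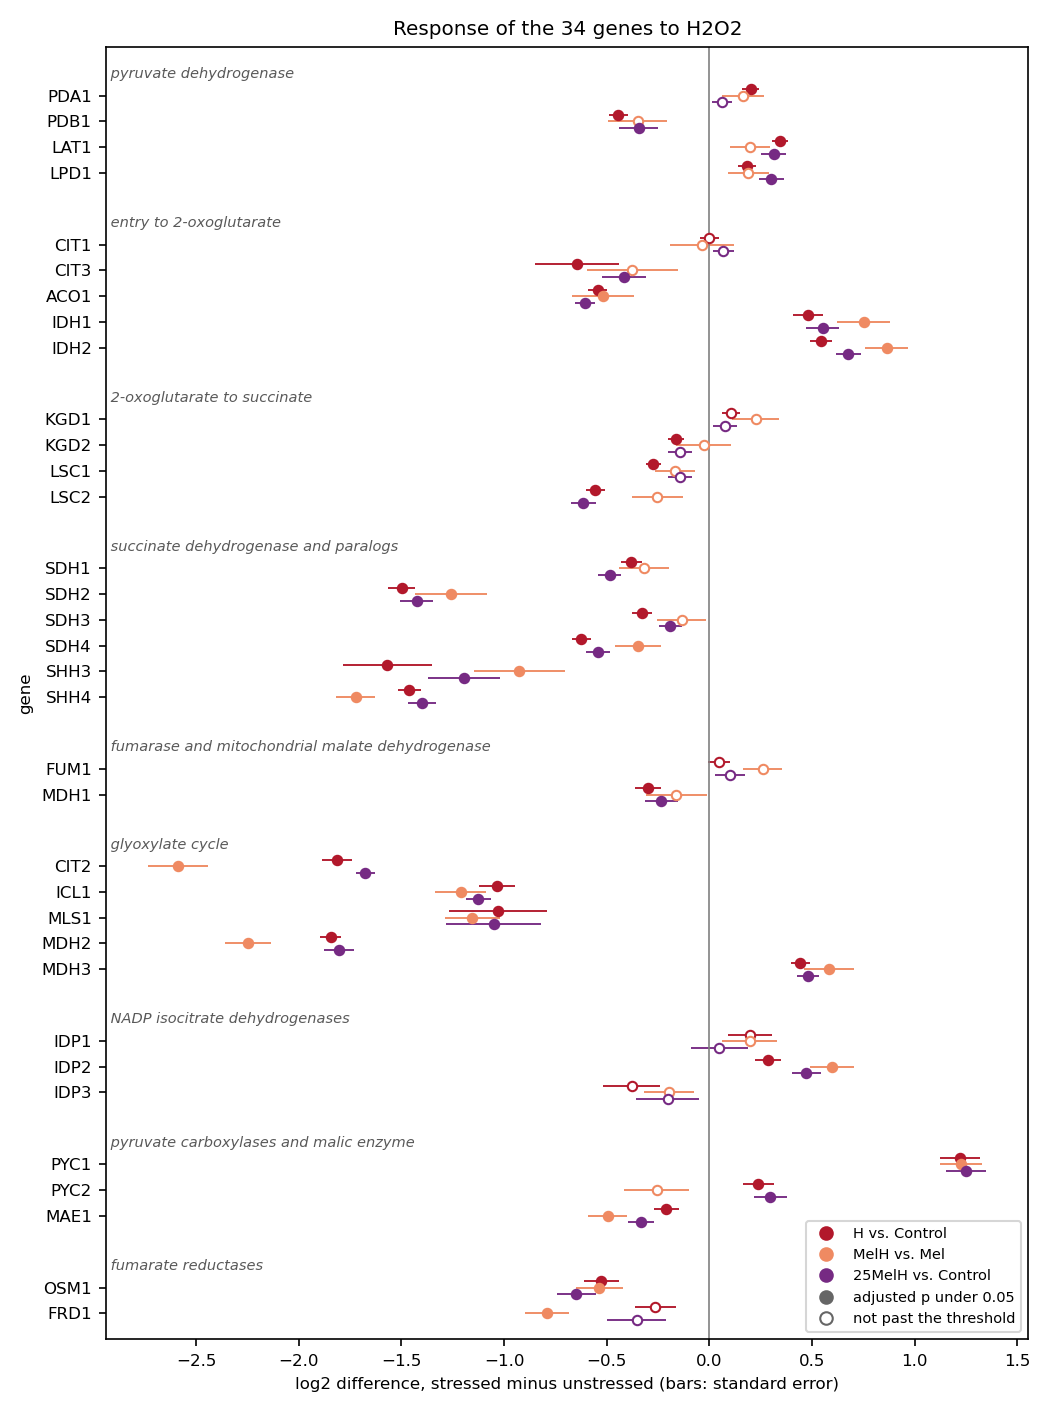
Log2 difference between stressed and unstressed cells for each of the 34 genes, in rows by role, for H vs. Control, MelH vs. Mel and 25MelH vs. Control. Points are differences of means with standard errors, and filled points passed an adjusted p under 0.05. CIT2, MDH2, SDH2 and SHH4 lie far to the left in all 3 comparisons and PYC1 lies to the right. The points to the right of 0 that passed lie to its left when arrays are scaled on spike-in controls, apart from PYC1 in MelH vs. Mel.

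Of the 5 genes of the glyoxylate cycle, 4 fell and 1 rose in H vs. Control, the rise not holding with spike-in scaling and the fall of MLS1 not with normexp background correction. Over all genes 41.1% were called lower and 27.3% higher. CIT2 (YCR005C), the peroxisomal citrate synthase and a standard target of the retrograde pathway, had log2 levels of −1.82, −1.74 and −1.57 in H cells, against 0.13, 0.11 and 0.077 in Control cells. Its level was 3.51-fold lower in H cells, a log2 change of −1.81 (standard error 0.072, adjusted p = 1.70e-05). The arrays of each condition lay close together, and no H array came near a Control array.

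MDH2 (YOL126C), the cytosolic malate dehydrogenase that serves sugar synthesis from non-sugar carbon, had log2 levels of −3.27, −3.27 and −3.27 in H cells, against −1.35, −1.50 and −1.42 in Control cells. It fell by 3.59-fold (log2 change −1.84, standard error 0.051, adjusted p = 8.01e-06). The 3 H arrays were nearly identical, and all lay below the Control arrays.

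ICL1 (YER065C), isocitrate lyase, the enzyme that splits isocitrate and opens the glyoxylate bypass, had log2 levels of −3.64, −3.52 and −3.32 in H cells, against −2.44, −2.49 and −2.45 in Control cells. Its change was −1.03 (standard error 0.086, adjusted p = 0.000173), and the conditions did not overlap. MLS1 (YNL117W), malate synthase, which closes the bypass, had log2 levels of −7.72, −7.28 and −6.89 in H cells, against −6.18, −6.56 and −6.07 in Control cells. The change of MLS1 was −1.03 (standard error 0.24, adjusted p = 0.0105), but only 1 of the 3 H arrays measured it well above background, and with normexp background correction the value was 0.22 (called higher, adjusted p = 0.0254).

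MDH3, the peroxisomal malate dehydrogenase, which reoxidizes NADH in the peroxisome, went the other way. It averaged 2.10 ± 0.021 in H cells and 1.66 ± 0.063 in Control cells (SD, n = 3 each), and rose by 0.44 on the log2 scale (adjusted p = 0.000417), with −0.98 when arrays were scaled on spike-in controls. The 3 malate dehydrogenases therefore differed in direction under the main scaling, since MDH1, the mitochondrial enzyme, had 1.76 ± 0.029 in H cells and 2.06 ± 0.11 in Control cells and fell by 0.30 on the log2 scale (adjusted p = 0.00777). The change of MDH1 was −0.044 with median centring and was not called then.

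All 6 genes of succinate dehydrogenase and its paralogs were lower in H cells than in Control cells and passed the threshold, the dim SHH3 with a direction that depended on the background correction, with a median log2 change of −1.04. This enzyme oxidizes succinate in the inner membrane and feeds electrons to ubiquinone. SDH2 (YLL041C), its iron-sulfur subunit, had log2 levels of −1.03, −1.15 and −1.21 in H cells, against 0.45, 0.30 and 0.35 in Control cells. The decrease was 2.83-fold (log2 change −1.50, standard error 0.067, adjusted p = 2.28e-05). SDH2 fell more than the other subunits of the core enzyme, and its H and Control arrays lay far apart.

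SDH4 (YDR178W), a membrane anchor subunit, had log2 levels of −0.50, −0.44 and −0.49 in H cells, against 0.11, 0.12 and 0.21 in Control cells, a change of −0.62 (standard error 0.045, adjusted p = 0.000105). SDH1, the flavoprotein subunit, changed by −0.38 (adjusted p = 0.00119) and SDH3, the other membrane anchor, by −0.33 (adjusted p = 0.00173). For SDH1, SDH3 and SDH4 too, all H arrays lay below all Control arrays. With median centring the calls of SDH1 and SDH3 were lost, at −0.12 and −0.073.

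SHH4 (YLR164W), the paralog of SDH4 that can stand in for it in the enzyme, had log2 levels of −4.29, −4.28 and −4.29 in H cells, against −2.76, −2.79 and −2.92 in Control cells. It fell by 2.75-fold (log2 change −1.46, standard error 0.054, adjusted p = 1.53e-05), a larger log2 change than that of SDH4, with the arrays of H again nearly identical. SHH3 (YMR118C), the paralog of SDH3, had log2 levels of −8.62, −7.94 and −8.65 in H cells, against −6.82, −7.02 and −6.66 in Control cells, a change of −1.57 (standard error 0.22, adjusted p = 0.00124). SHH3 was dim, with 1 of 3 H arrays well above background, and its change was 0.27 with normexp background correction (called higher, adjusted p = 0.00999).

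**Figure D2:**
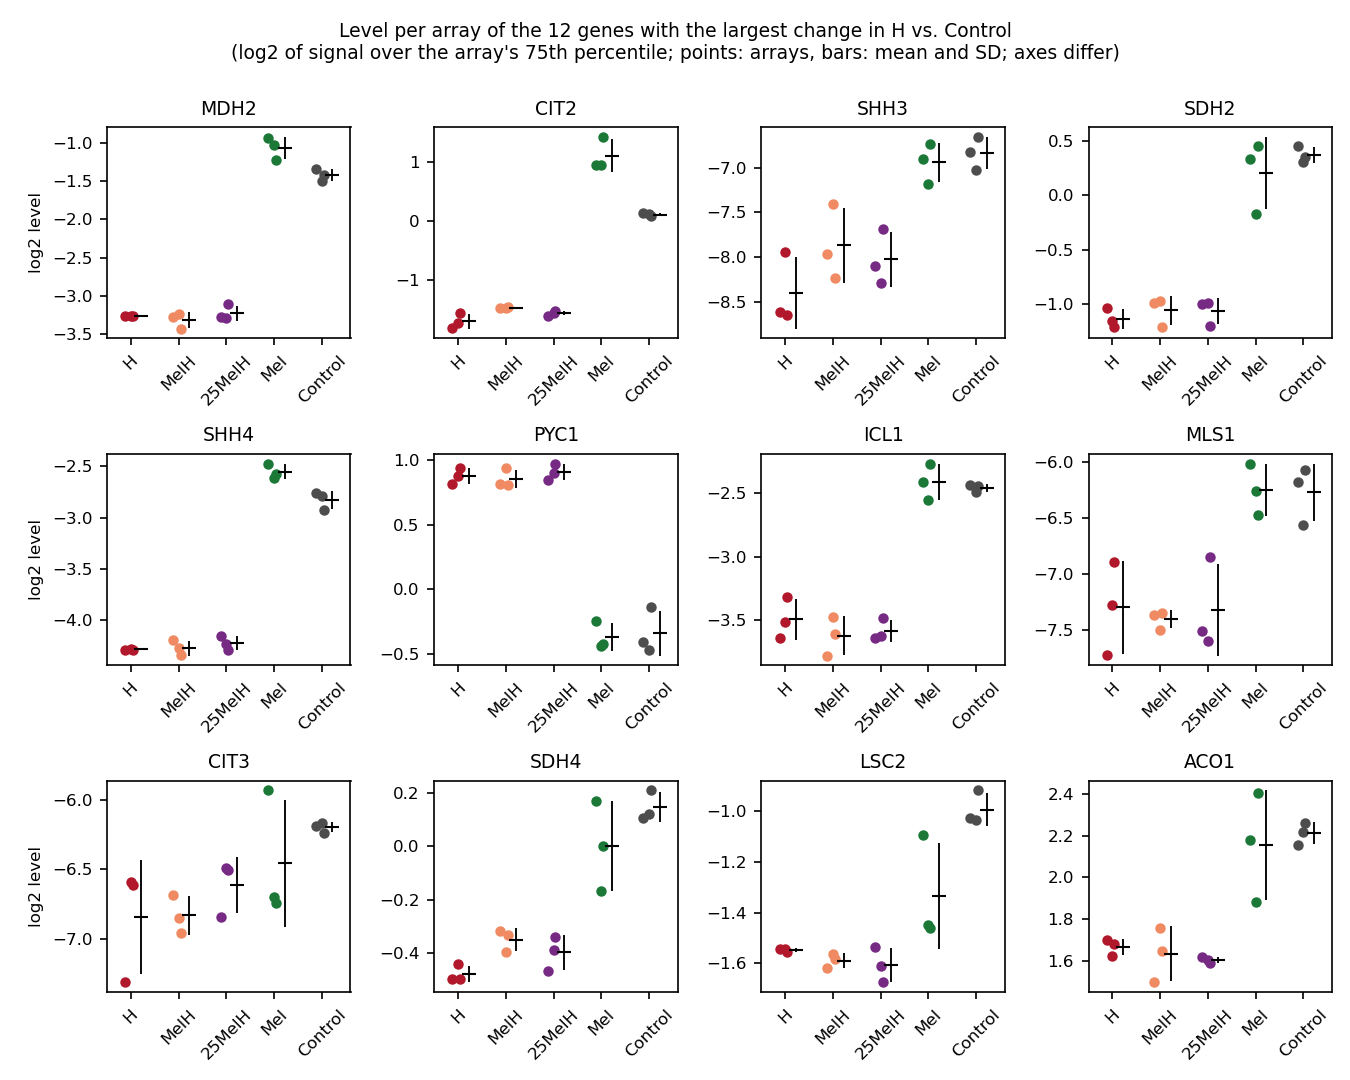
Log2 level on each array of the 12 genes with the largest changes among those that passed in H vs. Control, for H, MelH, 25MelH, Mel and Control, with the mean and SD beside the points. Each panel has its own axis. The 3 stressed conditions lie together and apart from Mel and Control for MDH2, CIT2, SDH2, SHH4, PYC1 and ICL1, and CIT2 is the gene whose 3 Mel arrays lie well above its Control arrays.

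Between oxaloacetate and 2-oxoglutarate the genes moved in opposite directions under the main scaling. ACO1 (YLR304C), mitochondrial aconitase, an iron-sulfur enzyme that turns citrate into isocitrate, had log2 levels of 1.70, 1.63 and 1.68 in H cells, against 2.16, 2.22 and 2.26 in Control cells. It fell by 1.46-fold (log2 change −0.54, standard error 0.046, adjusted p = 0.000178), with no overlap between the conditions. IDH1 and IDH2, the subunits of the NAD-dependent isocitrate dehydrogenase, which takes the product of aconitase, both rose, although not with spike-in scaling.

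IDH2 had log2 levels of 0.94, 0.98 and 0.96 in H cells, against 0.37, 0.37 and 0.51 in Control cells, and a change of 0.54 (standard error 0.053, adjusted p = 0.000321). IDH1 had 1.11, 1.10 and 1.07 in H cells, against 0.48, 0.61 and 0.75 in Control cells, and a change of 0.48 (standard error 0.074, adjusted p = 0.00199). The paired subunits thus changed by similar amounts, every H array above every Control array, and both values lay below 0 with spike-in scaling, at −0.88 and −0.94.

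CIT1, the main mitochondrial citrate synthase, averaged 1.40 ± 0.04 in H cells and 1.40 ± 0.06 in Control cells (SD, n = 3 each), with overlapping arrays and an adjusted p of 0.999. It was called with median centring, and called lower with spike-in scaling. The peroxisomal CIT2 and the mitochondrial CIT1, paralogs that catalyse the same reaction, hence had very different values. CIT3 (YPR001W), a minor mitochondrial citrate synthase that also makes methylcitrate, had log2 levels of −7.32, −6.59 and −6.61 in H cells, against −6.19, −6.16 and −6.23 in Control cells, a change of −0.65 (standard error 0.20, adjusted p = 0.0319). CIT3 was above background on 2 of 3 H arrays, its call was lost on leaving out any single Control array (adjusted p = 0.0800, 0.0810 and 0.0724 without replicates 1, 2 and 3), and its change was 0.29 with normexp background correction (called higher, adjusted p = 0.00789).

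Among the NADP-dependent isocitrate dehydrogenases, which supply NADPH, the cytosolic IDP2 passed the threshold and the other two did not. IDP2 had log2 levels of −4.01, −4.10 and −4.01 in H cells, against −4.26, −4.44 and −4.28 in Control cells, and rose by 0.28 (standard error 0.064, adjusted p = 0.00936), with −1.14 under spike-in scaling. The mitochondrial IDP1 had a difference of 0.20 (adjusted p = 0.150) and the peroxisomal IDP3, which supplies NADPH for fatty acid breakdown, of −0.38 (adjusted p = 0.0521). The H and Control arrays overlapped for IDP1 and did not for IDP3, which missed the threshold narrowly. With median centring IDP1 was called, and with spike-in scaling IDP1 and IDP3 were called lower.

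From 2-oxoglutarate to succinate, 3 of 4 genes were lower in H cells and passed, beside 41.1% of all genes called lower. LSC2 (YGR244C), a subunit of succinyl-CoA ligase, the step that yields a nucleoside triphosphate, had log2 levels of −1.54, −1.54 and −1.56 in H cells, against −1.03, −1.03 and −0.92 in Control cells. Its change was −0.56 (standard error 0.046, adjusted p = 0.000173), and the arrays did not overlap. The partner subunit LSC1 fell by 0.27 on the log2 scale (adjusted p = 0.00109), and was at −0.019 and not called with median centring. Of the 2-oxoglutarate dehydrogenase genes, KGD2, the succinyltransferase subunit, changed by −0.16 (adjusted p = 0.0128), by 0.092 with median centring, and did not pass without H replicate 3 (adjusted p = 0.0517). The call of KGD2 held in 12 of the 18 alternative settings. KGD1, the dehydrogenase subunit, did not pass (adjusted p = 0.0830), with 0.018 ± 0.039 in H cells and −0.085 ± 0.044 in Control cells (SD, n = 3 each). Fumarase, FUM1, had 0.53 ± 0.013 in H cells and 0.48 ± 0.085 in Control cells (SD, n = 3 each), overlapping arrays and an adjusted p of 0.457. Both KGD1 and FUM1 were called with median centring, and called lower with spike-in scaling.

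The pyruvate dehydrogenase genes all passed, 3 higher and 1 lower under the main scaling, beside 27.3% higher and 41.1% lower over all genes. LAT1, the acetyltransferase core, rose by 0.34 (standard error 0.039, adjusted p = 0.000617), PDA1, the alpha subunit of the first enzyme, by 0.20 (adjusted p = 0.00681), and LPD1, the lipoamide dehydrogenase that is shared with 2-oxoglutarate dehydrogenase, by 0.18 (adjusted p = 0.0116). PDB1, the beta subunit that pairs with PDA1, had log2 levels of 0.78, 0.67 and 0.75 in H cells, against 1.16, 1.22 and 1.17 in Control cells. PDB1 fell by 0.44 on the log2 scale (standard error 0.046, adjusted p = 0.000402), so the subunits of a single enzyme went opposite ways under the main scaling. With quantile normalization PDA1 and LPD1 were at −0.0041 and −0.0068 and not called, and under spike-in scaling the 3 genes that had risen lay below Control, at −1.08 for LAT1, −1.22 for PDA1 and −1.24 for LPD1. The call of LPD1 held in 13 of the 18 alternative settings and that of PDA1 in 14.

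PYC1 (YGL062W), a cytosolic pyruvate carboxylase, which refills oxaloacetate, had log2 levels of 0.82, 0.88 and 0.94 in H cells, against −0.41, −0.47 and −0.14 in Control cells. It was 2.33-fold higher (log2 change 1.22, standard error 0.096, adjusted p = 0.000137), the largest rise among the 34 genes in H vs. Control, and −0.20 on the log2 scale with spike-in scaling. Every H array lay well above every Control array under the main scaling. Its paralog PYC2 had a change of 0.24 (standard error 0.075, adjusted p = 0.0326), and −1.18 with spike-in scaling. The call of PYC2 held in 8 of the 18 alternative settings. It was lost, among others, with the spread shared over all 15 arrays, the slide as a block and quantile normalization. Leaving out Control replicate 2 (adjusted p = 0.0677) or H replicate 1, 2 or 3 (adjusted p = 0.0773, 0.0751 and 0.0899) also lost it.

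MAE1, the mitochondrial malic enzyme, which turns malate into pyruvate, fell by 0.21 on the log2 scale (adjusted p = 0.0248), and was at 0.045 with median centring. That call was lost on leaving out Control replicate 1 or 2 (adjusted p = 0.0659 and 0.0734) or H replicate 2 or 3 (adjusted p = 0.0623 and 0.0827). Of the fumarate reductases, which turn fumarate into succinate and regenerate oxidized cofactors, OSM1 fell by 0.53 on the log2 scale (standard error 0.086, adjusted p = 0.00247), and was at −0.043 and not called with quantile normalization. FRD1, the cytosolic enzyme, had log2 levels of −0.52, −0.48 and −0.53 in H cells, against −0.41, −0.29 and −0.036 in Control cells, and missed the threshold (adjusted p = 0.0570). Its H arrays lay below its Control arrays, among which the spread was wider.

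**Figure D3:**
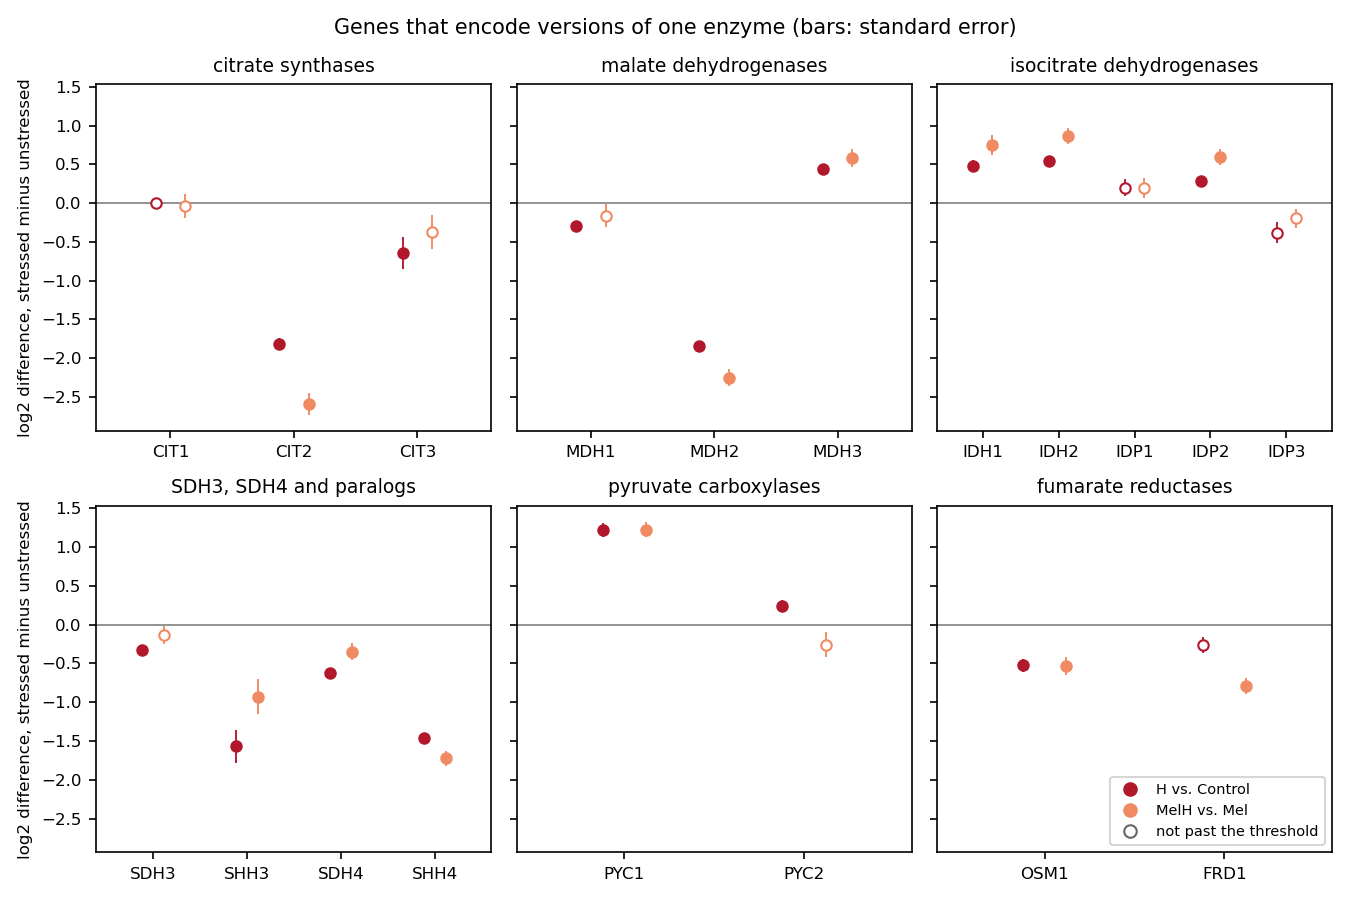
Log2 difference between stressed and unstressed cells, with standard errors, for genes that encode versions or partners of the same enzyme, in H vs. Control and MelH vs. Mel. CIT2 lies far below CIT1, MDH2 far below MDH3, SHH4 below SDH4 and PYC1 above PYC2 in both comparisons. Filled points passed an adjusted p under 0.05, and the filled points above 0 fall below it with spike-in scaling, apart from PYC1 in MelH vs. Mel, which stays above.

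Stress in cells grown with 5 μM melatonin was read from MelH vs. Mel, which shares no array with H vs. Control. Of the 34 genes, 17 passed, 5 higher and 12 lower, where 21.1% of all genes were called higher and 31.5% lower. The median change was −0.23 over the 34 genes and −0.065 over all genes. Median centring gave 11 higher and 9 lower and spike-in scaling 0 and 29, with the median of all genes at −1.06. With the slide as a block 18 passed, within slide 1 21 and within slide 2 11.

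The genes called in both comparisons went the same way in each. There were 16 of them, and none of the 34 genes was called in opposite directions. Over all genes 27.3% and 21.1% were called higher in H vs. Control and MelH vs. Mel, and 41.1% and 31.5% lower. Shared calls over all genes were not counted, so this match is not read as particular to these genes. CIT2 had log2 levels of −1.49, −1.47 and −1.47 in MelH cells, against 0.95, 0.95 and 1.43 in Mel cells. It fell by 6.01-fold (log2 change −2.59, standard error 0.15, adjusted p = 2.30e-05), the largest change of the 34 genes in the 8 comparisons made. The MelH arrays were close to identical, while Mel replicate 3 lay above the other Mel arrays.

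MDH2 had −3.28, −3.24 and −3.43 in MelH cells, against −0.94, −1.03 and −1.22 in Mel cells, a log2 change of −2.25 (standard error 0.11, adjusted p = 1.63e-05). SHH4 had −4.20, −4.28 and −4.34 in MelH cells, against −2.47, −2.61 and −2.57 in Mel cells, a change of −1.72 (standard error 0.095, adjusted p = 2.19e-05). In both genes the stressed and unstressed arrays were far apart. SDH2 had −0.99, −0.97 and −1.21 in MelH cells, against 0.33, −0.17 and 0.45 in Mel cells, a change of −1.26 (standard error 0.17, adjusted p = 0.00104), with Mel replicate 2 below the other Mel arrays but above all MelH arrays.

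In MelH vs. Mel ICL1 changed by −1.21 (adjusted p = 0.000254), MLS1 by −1.16 (adjusted p = 0.000471) and SHH3 by −0.93 (adjusted p = 0.0113). MLS1 and SHH3 were above background on 1 of 3 MelH arrays, and MLS1 was at −0.023 and SHH3 at 0.081 with normexp background correction. PYC1 had 0.81, 0.94 and 0.81 in MelH cells, against −0.25, −0.44 and −0.43 in Mel cells, and rose by 1.23 (standard error 0.10, adjusted p = 0.000101), very near its change without melatonin. With spike-in scaling PYC1 was at 0.23 and not called. The other rises were those of IDH2 (0.86), IDH1 (0.75), IDP2 (0.60) and MDH3 (0.58), all of which lay below 0 with spike-in scaling.

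FRD1 passed in MelH vs. Mel and not in H vs. Control, and the difference between its stress effects did not pass (adjusted p = 0.239). Its log2 levels were −0.75, −0.69 and −0.63 in MelH cells, against 0.23, −0.059 and 0.14 in Mel cells, a change of −0.79 (standard error 0.11, adjusted p = 0.000967). The further decreases that passed were those of OSM1 (−0.54), ACO1 (−0.52), MAE1 (−0.50) and SDH4 (−0.35). With median centring OSM1, ACO1 and SDH4 were not called (−0.30, −0.28 and −0.11), and with quantile normalization OSM1 was at −0.047 and not called. The call of ACO1 was lost without Mel replicate 1 or 3 (adjusted p = 0.0619 and 0.0539) or MelH replicate 1 or 3 (0.0866 and 0.0565). That of SDH4 was lost without Mel replicate 1 or 3 (0.0910 and 0.0595) or any MelH array (0.0858, 0.101 and 0.0831). The 4 pyruvate dehydrogenase genes and the 4 genes from 2-oxoglutarate to succinate had 0 calls in limma in this comparison under the main scaling. Over all genes 21.1% were called higher and 31.5% lower. Of the 8, 1 was at an unadjusted p under 0.05, PDB1 at −0.35. With the spread shared over all 15 arrays all but KGD2 were called, and with spike-in scaling all 8 were called lower. The difference between the stress effects with and without melatonin passed for none of the 8 (smallest adjusted p = 0.481 in limma).

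In 25MelH vs. Control, which uses the Control arrays of H vs. Control again, 25 of the 34 genes passed, 8 higher and 17 lower, against 26.7% and 38.9% of all genes. The split was 12 and 12 with median centring, 0 and 33 with spike-in scaling and 5 and 18 after quantile normalization. In the spike-in fit the median of all genes was −1.65. With normexp background correction it was 1 and 0, and 12 and 15 when 6 spots of very bright local background on 25MelH replicate 2 were left out first, a setting chosen after seeing the data. Within slide 1 22 passed and within slide 2 8, and with the slide as a block 25. CIT2 had log2 levels of −1.61, −1.56 and −1.54 in 25MelH cells, a change of −1.68 (adjusted p = 6.62e-06), MDH2 changed by −1.80 (adjusted p = 1.63e-05) and SDH2 by −1.43 (adjusted p = 4.04e-05). SHH4 changed by −1.40 (adjusted p = 2.67e-05) and ICL1 by −1.13 (adjusted p = 3.66e-05), and PYC1 rose by 1.25 (adjusted p = 0.000128), with −0.32 under spike-in scaling.

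Set side by side, the 3 stress comparisons called 5 genes higher each time (IDH1, IDH2, IDP2, MDH3 and PYC1, all below 0 with spike-in scaling except PYC1 in MelH vs. Mel) and 11 lower each time (ACO1, CIT2, ICL1, MAE1, MDH2, MLS1, OSM1, SDH2, SDH4, SHH3 and SHH4). Under the main scaling CIT1, FUM1, IDP1, IDP3 and KGD1 were called in none of the 3. With median centring CIT1, FUM1, IDP1 and KGD1 were called in H vs. Control. With spike-in scaling CIT1, FUM1, IDP1, IDP3 and KGD1 were called lower in all 3. Over all genes 27.3%, 21.1% and 26.7% were called higher in H vs. Control, MelH vs. Mel and 25MelH vs. Control, and 41.1%, 31.5% and 38.9% lower. How many of all genes were called the same way each time was not counted, so the overlap is not read as particular to these genes. Of the 11 lower genes SHH3 was above 0 in all 3 comparisons with normexp background correction, MLS1 in H vs. Control and 25MelH vs. Control, and SHH4 and OSM1 in 25MelH vs. Control before the bright spots were left out, and MAE1 was above 0 in H vs. Control with median centring. The genes that were lower each time are 4 of the 5 genes of the glyoxylate cycle, 4 of the 6 of succinate dehydrogenase and its paralogs, aconitase, the malic enzyme and a fumarate reductase. H vs. Control and 25MelH vs. Control share the Control arrays and are not independent of each other.

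Genes around the pathway, on lists chosen with earlier results known, were read from the same fits. Of 14 partner and accessory genes, 3 were higher and 7 lower in H vs. Control, beside 27.3% and 41.1% of all genes, and 2 and 6 in MelH vs. Mel, beside 21.1% and 31.5%. Of the regulators of pyruvate dehydrogenase, PTC6, PKP1 and PKP2 were among the lower ones, while PTC5 was called in neither comparison under the main scaling. In H vs. Control PTC5 was called higher with median centring and quantile normalization, and lower with spike-in scaling. PTC6, a phosphatase that activates the complex, changed by −1.81 in H vs. Control, and by −2.07 in MelH vs. Mel, the kinase PKP1 by −0.98 and −1.48, and the kinase PKP2 by −0.96 and −1.20. DAL7, a malate synthase of allantoin breakdown, changed by −1.16 and −0.95, beside the decrease of its paralog MLS1. The succinate dehydrogenase assembly factor SDH5 was lower, at −0.58 and −0.35, SDH7 was higher, at 0.16 and 0.35, but below 0 with spike-in scaling, and SDH8, at −0.36 and −0.086, was called lower in the first of these comparisons. The second value of SDH5 was not called with median centring (−0.12), quantile normalization (−0.16) or normexp background correction (−0.32). SDH6 was called in neither under the main scaling, and was called higher in both with median centring (0.20 and 0.62) and quantile normalization (0.49 and 0.97) and lower in both with spike-in scaling (−1.48 and −0.61).

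Of 13 transcription regulators of these genes, 1 was higher and 9 lower in H vs. Control (27.3% and 41.1% over all genes), and 1 and 7 in MelH vs. Mel (21.1% and 31.5%). The 4 genes of the Hap complex were called lower in both under the main scaling, and their values stayed below 0 with the other scalings. Calls were lost in H vs. Control for HAP4 with median centring (−0.21) and HAP5 with quantile normalization (−0.18), and in MelH vs. Mel for HAP5 with both (−0.29 and −0.15) and HAP2 with quantile normalization (−0.22). HAP2 was at −0.73 and −0.63, HAP3 at −1.20 and −1.18, HAP4, the regulated subunit, at −0.46 and −0.94, and HAP5 at −0.57 and −0.53. The haem-responsive activator HAP1 changed by −1.54 and −2.11. MIG1, the glucose repressor, had the largest decrease among the regulators, −2.77 and −2.44. Among RTG1, RTG2 and RTG3 of the retrograde pathway, RTG1 rose by 1.19 and 1.10 while RTG3, its partner, was lower, at −0.67 and −0.78. RTG2 was called in neither comparison under the main scaling. In H vs. Control RTG2 was called higher with median centring (0.37) and lower with spike-in scaling (−1.31). With spike-in scaling RTG1 was below 0 in H vs. Control. Of 5 genes of gluconeogenesis and acetate use, ACS1, an acetyl-CoA synthetase, was lower (−0.94 and −0.49), and ACS2, the other synthetase (0.78 and 1.05), and SFC1, the succinate-fumarate carrier (0.82 and 1.03), were higher. With spike-in scaling ACS2 and SFC1 were below 0 in H vs. Control, and with quantile normalization ACS1 was above 0 in MelH vs. Mel, where it was also not called with median centring or normexp background correction.

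With 5 μM melatonin and no stress (Mel vs. Control) the gene farthest from its Control level was CIT2, the citrate synthase of the glyoxylate cycle. None of the 34 genes passed in limma (0), where 0.37% of all genes, 23 of them, were called in either direction. The 23 became 20 without Mel replicate 2, 1 without Mel replicate 1 or any single Control array, and 0 without Mel replicate 3, and 9 with same-numbered arrays as a replicate block. Unadjusted p-values under 0.05 were found for 6, 5 of them higher and 1 lower, beside 10.1% of all genes. The changes lay between −0.34 and 1.00 on the log2 scale, with a median of −0.050 over the 34 genes and −0.012 over all genes.

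CIT2 had log2 levels of 0.95, 0.95 and 1.43 in Mel cells, against 0.13, 0.11 and 0.077 in Control cells, and was 2.01-fold higher, a log2 difference of 1.00 (standard error 0.14, adjusted p = 0.0607 in limma). The conditions did not overlap, the Control arrays were close together, and Mel replicate 3 was the highest. The adjusted p was 0.0783 with same-numbered arrays as a replicate block and 0.119 with the slide as a block, where the difference was 0.97. The difference was 0.83 within slide 1 (adjusted p = 0.0238) and 1.11 within slide 2 (adjusted p = 0.630), and it passed with quantile normalization (0.0253), with normexp background correction (0.0464), with the filter on dim genes (0.0250) and with the spread shared over all 15 arrays (0.000264).

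MDH2, next in rank by p, had −0.94, −1.03 and −1.22 in Mel cells, against −1.35, −1.50 and −1.42 in Control cells, a log2 difference of 0.36 (standard error 0.10, adjusted p = 0.318). PYC2 had 3.06, 3.05 and 3.49 in Mel cells, against 2.60, 2.77 and 2.88 in Control cells, a difference of 0.45 (standard error 0.15, adjusted p = 0.380). SHH4 had −2.47, −2.61 and −2.57 in Mel cells, against −2.76, −2.79 and −2.92 in Control cells, a difference of 0.27 (standard error 0.091, adjusted p = 0.386). In MDH2, PYC2 and SHH4 all Mel arrays lay above all Control arrays. They were named for their small p-values, so this adds no separate support. The Mel arrays of LAT1 also lay above all Control arrays, and those of IDH2, LSC2 and FUM1 below. How many of all genes had no overlap was not counted, so the separation is not read as particular to these genes. FRD1 was at 0.35 with overlapping arrays, and LSC2 was the gene on the lower side, at −0.34. With the spread shared over all 15 arrays MDH2, SHH4 and LSC2 passed, while PYC2 and FRD1 did not. The pyruvate dehydrogenase genes PDA1, PDB1, LAT1 and LPD1 had differences of −0.066, 0.002, 0.10 and −0.0077.

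**Figure D4:**
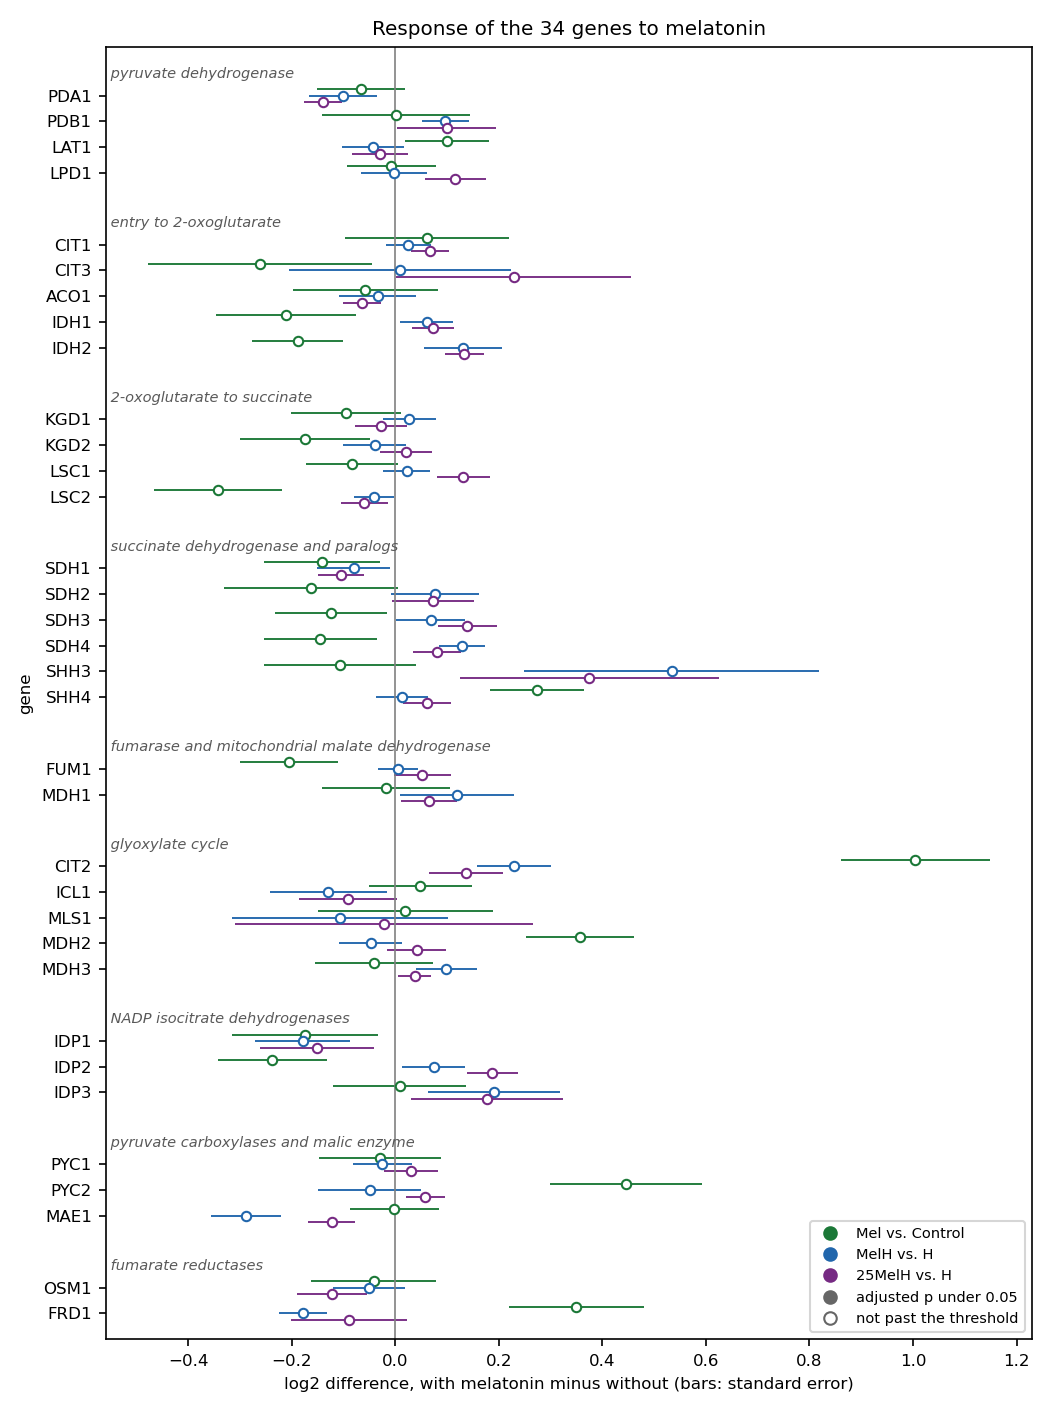
Log2 difference with and without melatonin for each of the 34 genes, in rows by role, for Mel vs. Control (5 μM, no stress), MelH vs. H (5 μM, stress) and 25MelH vs. H (25 μM, stress). Points are differences of means with standard errors, and all are open because none passed an adjusted p under 0.05. CIT2 in Mel vs. Control is the point farthest from 0, at 1.00.

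Melatonin before stress was read at 2 doses against the same H arrays. In MelH vs. H (5 μM) none of the 34 genes passed in limma, and 0% of all genes did. Unadjusted p-values under 0.05 were found for 4 of them, 2 higher and 2 lower, beside 12.4% of all genes, and the changes lay between −0.29 and 0.53 with a median of 0.0074. MAE1 had log2 levels of 2.98, 3.15 and 2.95 in MelH cells, against 3.37, 3.32 and 3.25 in H cells, a difference of −0.29 (standard error 0.068, adjusted p = 0.328). FRD1 had −0.75, −0.69 and −0.63 in MelH cells, against −0.52, −0.48 and −0.53 in H cells, a difference of −0.18 (standard error 0.046, adjusted p = 0.339). In neither gene did the conditions overlap.

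CIT2 had −1.49, −1.47 and −1.47 in MelH cells, against −1.82, −1.74 and −1.57 in H cells, a difference of 0.23 (standard error 0.072, adjusted p = 0.353), with each MelH array above each H array. SDH4 was at 0.13 (standard error 0.044, adjusted p = 0.372), also without overlap. MAE1, FRD1, CIT2 and SDH4 were named for their small p-values, so the lack of overlap adds no separate support. PDB1 and LSC2 also had no overlap, at unadjusted p-values over 0.05 in limma. The share of all genes without overlap was not counted, so the separation is not read as particular to these genes. The largest difference, that of SHH3 at 0.53 (standard error 0.28, adjusted p = 0.495), was between arrays of which 1 of 3 in each condition was above background.

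In 25MelH vs. H (25 μM) again none of the 34 genes passed in limma and 0% of all genes did, with 5 of the 34 at an unadjusted p under 0.05, 3 higher and 2 lower, beside 16.2% of all genes. PDA1 had 2.76, 2.74 and 2.69 in 25MelH cells, against 2.87, 2.89 and 2.84 in H cells, a difference of −0.14 (standard error 0.036, adjusted p = 0.216). IDP2 was at 0.19 (standard error 0.049), IDH2 at 0.13 (standard error 0.038), LSC1 at 0.13 and MAE1 at −0.12 (standard error 0.045), with adjusted p-values between 0.216 and 0.298. In each of these 5 genes all 25MelH arrays lay on the same side of all H arrays. They were picked by their p-values, so this adds no separate support. CIT1, ACO1, SDH1 and MDH3 also had no overlap, at unadjusted p-values over 0.05 in limma. The share of all genes without overlap was not counted, so the separation is not read as particular to these genes.

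Across the doses of 0, 5 and 25 μM under stress, MAE1 averaged 3.31 ± 0.058, 3.03 ± 0.10 and 3.19 ± 0.035, and CIT2 averaged −1.71 ± 0.13, −1.48 ± 0.0081 and −1.57 ± 0.037 (mean ± SD of log2 levels, n = 3 each). In both genes the dose of 5 μM lay farthest from 0 μM, with 25 μM between. IDP2 averaged −4.04 ± 0.052, −3.97 ± 0.089 and −3.85 ± 0.06, in the order of the doses. MAE1, CIT2 and IDP2 were named for small p-values in MelH vs. H or 25MelH vs. H. That choice favours the dose compared, so the order of their means is not read as a dose response. The difference between the doses, 25MelH vs. MelH, gave 0 calls among the 34 genes in limma and 0% of all genes, and 0 of the 34 genes at an unadjusted p under 0.05, beside 1.3% of all genes. The smallest p among the 34 was that of MAE1, at 0.17 (standard error 0.069, adjusted p = 0.999). CIT2 was at −0.092 (standard error 0.048), CIT3 at 0.22 (standard error 0.13) and IDP2 at 0.11 (standard error 0.067).

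Whether melatonin shifted the genes differently with and without stress was tested by the difference of the melatonin effects, (MelH − H) − (Mel − Control), which equals the difference between the stress effects with and without melatonin. Among the 34 genes 0 passed in limma, where 0.337% of all genes did (21 genes, between 0 and 126 on leaving out single arrays, the 126 without Mel replicate 2, and 1 with the replicate block), and 11 were at an unadjusted p under 0.05, 5 higher and 6 lower, beside 9.85% of all genes. CIT2 had the smallest p, with a difference of −0.77 (standard error 0.17, adjusted p = 0.143), from a melatonin effect of 0.23 under stress and 1.00 without. It passed on leaving out Mel replicate 2 (adjusted p = 0.0429) or Mel replicate 3 (0.0333), and was at −0.49 within slide 1 and −0.93 within slide 2.

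FRD1 came next, at −0.53 (standard error 0.14, adjusted p = 0.239), with melatonin effects of −0.18 under stress and 0.35 without. MDH2 was at −0.40 (standard error 0.12, adjusted p = 0.288) and IDH2 at 0.32 (standard error 0.11, adjusted p = 0.346). For IDH2 the melatonin effects were 0.13 under stress and −0.19 without.

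The partner, regulator and gluconeogenesis lists had 0 calls among their 32 genes in Mel vs. Control, MelH vs. H, 25MelH vs. H and 25MelH vs. MelH in limma, with 3, 6, 5 and 1 at an unadjusted p under 0.05, beside 10.1%, 12.4%, 16.2% and 1.3% of all genes. SDH6, an assembly factor of succinate dehydrogenase, had log2 levels of −3.80, −3.82 and −3.81 in MelH cells, against −4.15, −4.12 and −4.22 in H cells, a difference of 0.35 (standard error 0.043, adjusted p = 0.319 in limma). Its arrays did not overlap, and its stress effects changed direction with the scaling.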

How the data were processed

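RNA of strain QA23 was hybridized to 15 Agilent 1-colour arrays, 3 for each of 5 conditions, which the study calls biological replicates. The authors deposited 1 scanner table per array, made with Feature Extraction 12.0.1.1, in which the processed signal is an intensity after background subtraction. They also deposited a matrix on the log2 scale, in which 6 columns hold the values of their own sample's scanner table and 9 those of a different sample (Mel columns equal MelH tables, H columns Mel and MelH columns H). Results come from the scanner tables, with the re-paired matrix as an alternative. The members and lists were chosen with earlier results of these data known.

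Control spots and spots flagged as outliers were left out, log2 intensities of the 2 spots of each probe were averaged and set relative to the array's 75th percentile, and the probe with the highest mean was kept for each of 6224 genes. No spot was saturated, and precision is limited by the number of arrays. Conditions were compared in limma 3.58.1 (R 4.3.3; lmFit, eBayes, two-sided) on the 6 arrays of a pair or, for the difference of melatonin effects, on 12, with Benjamini-Hochberg adjustment over all genes, a threshold of 0.05 and no fold threshold. The fit was tested on simulated data first. All 34 members are accounted for. Per-array values are given for the 12 largest changes called in H vs. Control, the 4 smallest p in each melatonin comparison and some further members chosen after their values were seen.

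Alternatives were median centring, quantile normalization, scaling on 7 spike-in probes, normexp background correction (offset 50), the matrix, a filter on genes well above background on at least 3 arrays of the fit, a spread shared over all arrays, the slide as a block, each slide alone (a lone array is assumed to vary like the others), a replicate block and each array left out. Normexp used the median spot signal in place of the planned mean. A further normexp run left out spots of local background over 1000 units, added after seeing the data. Same-numbered arrays had correlated deviations from their condition means in MelH vs. H (0.14 to 0.31) and Mel vs. Control (0.11 to 0.28). The labels state no pairing. The main fits have no block, and the fit with same-numbered arrays as a block is an alternative. Promoter and protein sequences were not used here. Values of 1 gene of the surrounding lists are not reported here.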

Additional observations from a re-analysis of the deposited data

How the results depend on the processing

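The counts among the 34 genes kept within 1.5 times of the main ones except as follows. Within slide 2 alone 10 passed in H vs. Control, 11 in MelH vs. Mel and 8 in 25MelH vs. Control. In MelH vs. Mel 29 passed with spike-in scaling and 26 with the spread of all 15 arrays. In 25MelH vs. Control normexp background correction gave 1 (78 of all genes, against 4082), and 27 without 6 spots of very bright local background on 25MelH replicate 2, an alternative chosen after seeing the data. Leaving out single arrays gave 25 to 28 in H vs. Control, 15 to 18 in MelH vs. Mel and 21 to 24 in 25MelH vs. Control, and 0 in the melatonin comparisons, apart from 1 (CIT2) for the difference of melatonin effects without Mel replicate 2 or 3. In Mel vs. Control 1 passed with quantile normalization, with either normexp run, with the filter on dim genes and within slide 1, and 4 with the spread of all 15 arrays. At an unadjusted p under 0.05 the counts were 6 in Mel vs. Control, 4 in MelH vs. H, 5 in 25MelH vs. H and 11 for the difference of melatonin effects.

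With a replicate block 26 of the 34 genes passed in H vs. Control, 17 in MelH vs. Mel, 24 in 25MelH vs. Control and 0 in the melatonin comparisons, so the block changed no call among the 34 genes in the melatonin comparisons. Over all genes Mel vs. Control had 23 calls, against 251 with the spread of all 15 arrays, 100 within slide 1, 35 with the dim filter, 9 with the replicate block, 1 with spike-in scaling and 1 with the slide as a block, and 0 to 20 on leaving out single arrays. The difference of melatonin effects had 21, against 34 with quantile normalization, 32 with the spread of all 15 arrays, 6 each in the spike-in and slide block fits, 1 with the replicate block, 0 within either slide and 0 to 126 on leaving out single arrays. Within slide 2 the calls over all genes were 1514 against 4260 in H vs. Control, 1442 against 3275 in MelH vs. Mel and 1122 against 4082 in 25MelH vs. Control. With spike-in scaling MelH vs. Mel had 5291.

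Called values of single genes changed sign in the stress comparisons under 4 kinds of setting. With spike-in scaling H vs. Control was −1.22 for PDA1, −1.08 for LAT1, −1.24 for LPD1, −0.94 for IDH1, −0.88 for IDH2, −0.98 for MDH3, −1.14 for IDP2, −0.20 for PYC1 and −1.18 for PYC2. MelH vs. Mel was then −0.25 for IDH1, −0.14 for IDH2, −0.42 for MDH3 and −0.40 for IDP2, and 25MelH vs. Control −1.26 for LAT1, −1.27 for LPD1, −1.02 for IDH1, −0.90 for IDH2, −1.09 for MDH3, −1.10 for IDP2, −0.32 for PYC1 and −1.27 for PYC2. With quantile normalization H vs. Control was −0.0041 for PDA1 and −0.0068 for LPD1. With median centring it was 0.092 for KGD2 and 0.0455 for MAE1, and 25MelH vs. Control was 0.078 for SDH3 and 0.0335 for MDH1. With either normexp run H vs. Control was 0.295 for CIT3, 0.27 for SHH3 and 0.22 for MLS1, and MelH vs. Mel 0.081 for SHH3. In 25MelH vs. Control normexp gave 1.79 for CIT3, 1.81 for SHH3, 1.69 for MLS1, 0.0415 for SHH4 and 0.28 for OSM1, and without the bright spots 0.44 for CIT3, 0.34 for SHH3 and 0.29 for MLS1. Spike-in scaling sets levels by added RNA. It put the median of all genes at −1.51 in H vs. Control, −1.06 in MelH vs. Mel and −1.65 in 25MelH vs. Control. Which scaling lies nearer the true levels was not tested, nor was the cause of any of these sign changes. Over all settings there were 1836 values of single genes in the stress comparisons, counting genes that the main fit did not call. Of the called ones 43 changed sign and 140 kept their sign but lost their call, and 86 uncalled ones gained a call.

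Precision is limited by 3 arrays a condition. CIT3, SHH3 and MLS1 lay near background under stress, so their decreases rest on dim spots. Within a slide some conditions had a single array.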
